A study of Mus musculus with 6 samples.

Results

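The genes described here are 47 DNA repair and damage checkpoint genes chosen by name, for their role in repairing or signalling DNA damage. They comprised 11 nucleotide excision genes, 11 base excision genes, 3 mismatch genes, 11 recombination genes, 5 end joining genes, 5 checkpoint genes and Polh, which encodes a translesion polymerase. Of the 47 names, 46 were found as the gene name of a probe and Rad9a was found through its RefSeq accession, since the array calls it Rad9. The 47 genes had 59 probes, of 55681 probes and 35527 names on the array.

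3T3 cells, an established line of mouse fibroblasts, had received either GapmeR Ntep or GapmeR control (50 nM) and were collected after 48 h. A GapmeR is an antisense oligonucleotide that directs cleavage of its target RNA, and Ntep is a long non-coding RNA. Each label had 3 arrays from 3 experiments, in which 1 culture per GapmeR was paired by its day. The GapmeR Ntep cultures received 1 GapmeR sequence against Ntep and no untreated cells were analysed here, so an effect of Ntep and one of that oligonucleotide cannot be told apart. The arrays are 1-color Agilent arrays and all 6 were on 1 slide. Values below are quantile-normalized signals without a unit, and differences are on the log2 scale, GapmeR Ntep minus GapmeR control, with the standard error (SE) of the limma fit.

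The probe of the target itself did not follow the labels in every experiment. Ntep (A630089N07Rik, probe at chr16:98283712-98283771 of mm9, minus strand) had signals of 471.9, 91.45 and 226.2 on the arrays labelled GapmeR Ntep and of 271.4, 272.4 and 361.2 on the control arrays. It was higher on the array labelled GapmeR Ntep in experiment 1 and lower in experiments 2 and 3, and the difference of -0.48 (SE 0.585, adjusted p = 0.632) did not pass the test. The array labelled GapmeR Ntep of experiment 1 also held the lowest of the 6 signals for 26 of the 47 members. This was counted for the members only, so whether it is particular to them was not tested. Before normalization that array had the lowest 75th percentile signal, 946 against 1100 to 1347 on the others.

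DNA repair genes encode enzymes that find, cut out and reseal damaged bases or join broken strands. Nucleotide excision removes bulky lesions such as those of ultraviolet light, base excision removes small altered bases, and mismatch repair corrects errors of replication. Broken chromosomes are repaired by homologous recombination, which copies an intact template, or by end joining, which ligates the ends directly. Checkpoint kinases sense damage and delay the cell cycle, and in fibroblasts this response acts largely through P53, whose targets include some repair genes.

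The promoters shown are those of the 3 lowest and the 3 highest members among those the RefSeq table held, so that the ends of the list can be read beside each other. Xrcc5, Ercc6 and Fanca had lower signals on every array labelled GapmeR Ntep, and Lig4, Ercc5 and Fen1 had higher signals. Each sequence gives the 250 bases before a start of the gene in GRCm38.p6, 5′ to 3′ on the gene's strand, and Lig4 and Fen1 have 2 starts each. Capitals mark, on either strand, the letters CCAAT (of CCAAT boxes), the letters TTTGAA (of cell cycle homology regions) and the E2F-type letters TTTGGCGC or their variant TTTCCCGC. Such elements are found in many promoters of cell cycle genes.
Xrcc5, chr1:72307171-72307420, plus strand: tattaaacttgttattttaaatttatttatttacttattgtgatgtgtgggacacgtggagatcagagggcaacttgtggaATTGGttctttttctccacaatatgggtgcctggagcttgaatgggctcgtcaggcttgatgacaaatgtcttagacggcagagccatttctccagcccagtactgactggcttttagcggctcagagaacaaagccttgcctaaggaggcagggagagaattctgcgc
Ercc6, chr14:32513271-32513520, plus strand: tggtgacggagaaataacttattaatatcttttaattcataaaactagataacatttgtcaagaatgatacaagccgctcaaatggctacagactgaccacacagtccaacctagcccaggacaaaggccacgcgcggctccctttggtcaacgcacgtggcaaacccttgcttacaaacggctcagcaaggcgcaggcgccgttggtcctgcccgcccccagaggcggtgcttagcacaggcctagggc
Fanca, chr8:123318577-123318826, minus strand: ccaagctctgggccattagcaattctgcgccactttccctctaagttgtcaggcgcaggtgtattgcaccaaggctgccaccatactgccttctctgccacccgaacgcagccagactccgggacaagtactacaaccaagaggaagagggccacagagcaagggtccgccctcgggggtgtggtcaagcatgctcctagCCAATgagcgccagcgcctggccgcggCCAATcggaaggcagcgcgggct
Lig4 (1 start), chr8:9977681-9977930, minus strand: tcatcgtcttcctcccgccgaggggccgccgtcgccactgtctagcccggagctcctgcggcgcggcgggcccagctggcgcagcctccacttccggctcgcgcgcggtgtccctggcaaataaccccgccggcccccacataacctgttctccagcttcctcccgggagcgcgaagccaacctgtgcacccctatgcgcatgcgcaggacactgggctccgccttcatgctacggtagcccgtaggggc
Lig4 (other start), chr8:9976312-9976561, minus strand: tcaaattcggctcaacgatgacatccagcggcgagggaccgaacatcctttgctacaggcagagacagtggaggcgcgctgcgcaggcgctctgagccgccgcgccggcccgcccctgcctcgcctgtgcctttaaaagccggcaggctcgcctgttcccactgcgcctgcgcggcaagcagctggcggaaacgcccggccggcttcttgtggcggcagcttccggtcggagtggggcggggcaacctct
Ercc5, chr1:44147494-44147743, plus strand: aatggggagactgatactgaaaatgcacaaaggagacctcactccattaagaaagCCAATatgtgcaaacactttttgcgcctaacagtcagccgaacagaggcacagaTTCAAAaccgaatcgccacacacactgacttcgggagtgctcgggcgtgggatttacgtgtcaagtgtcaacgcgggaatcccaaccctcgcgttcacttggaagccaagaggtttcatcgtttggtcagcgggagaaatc
Fen1 (1 start), chr19:10204394-10204643, minus strand: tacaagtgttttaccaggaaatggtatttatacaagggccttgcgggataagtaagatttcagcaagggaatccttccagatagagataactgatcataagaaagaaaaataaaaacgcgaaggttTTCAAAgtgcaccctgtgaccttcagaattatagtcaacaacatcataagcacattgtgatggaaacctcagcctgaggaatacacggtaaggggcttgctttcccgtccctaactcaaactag
Fen1 (other start), chr19:10203922-10204171, minus strand: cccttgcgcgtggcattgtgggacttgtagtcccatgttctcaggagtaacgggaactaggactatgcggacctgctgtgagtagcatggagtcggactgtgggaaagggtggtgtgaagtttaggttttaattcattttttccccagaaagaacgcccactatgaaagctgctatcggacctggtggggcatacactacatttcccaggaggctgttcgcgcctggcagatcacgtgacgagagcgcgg
Xrcc5 held CCAAT on the reverse strand at -169 from its start, and Fanca held it on the forward strand at -50 and -23. Ercc5 held CCAAT at -195 and TTTGAA on the reverse strand at -141. Fen1 held TTTGAA on the reverse strand at -124 of 1 start. None of these letters was found before the starts of Ercc6 and Lig4.

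Over the whole list, 30 members had lower and 17 had higher signals after GapmeR Ntep. Their median difference was -0.20, where the median of the 22034 names tested was 0.06. By experiment the members' median was -0.35, -0.06 and -0.10. A gene was tested if its brighter label averaged 50 or more, which held for all 47 members, and 44 were well above background on all arrays. Few single members passed a test. At an adjusted p under 0.05 over all 30990 probes tested, 1 member was higher (Rad9a) against 1.98% of all names, and 0 were lower against 3.18%. At a fold of at least 2 with an unadjusted p under 0.01, 1 member was higher (Rad9a) against 2.89% of all names and 1 was lower (Xrcc5) against 5.0%. The call of Xrcc5 was lost, leaving 1 member, without the GapmeR Ntep array of experiment 1 or 3 or the control array of experiment 2 or 3. At an unadjusted p under 0.05 alone, limma gave 6 members higher and 8 lower, against 12.3% and 12.6% of all names.

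Counting members whose 3 signals under one label all lay beyond the 3 under the other, 6 (12.8%) were higher and 14 (29.8%) were lower. Among all names these shares were 17.1% and 15.5%. Treating the experiment as a block, since the cultures were paired by day, 7 members passed an adjusted p of 0.05 in limma, 4 higher against 6.51% of all names in that fit and 3 lower against 7.42%. These were Rad9a, Lig4, Xpc and Ercc5, which were higher, and Xrcc5, Fanca and Lig3, which were lower. With the block, Fanca and Lig4 joined Rad9a and Xrcc5 past a fold of 2 and p 0.01, which makes 2 higher against 4.37% of all names and 2 lower against 6.75%. Without the GapmeR Ntep array of experiment 1, the members' median was -0.07, with 22 members higher and 25 lower, and no member passed an adjusted p of 0.05.

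**Figure D1:**
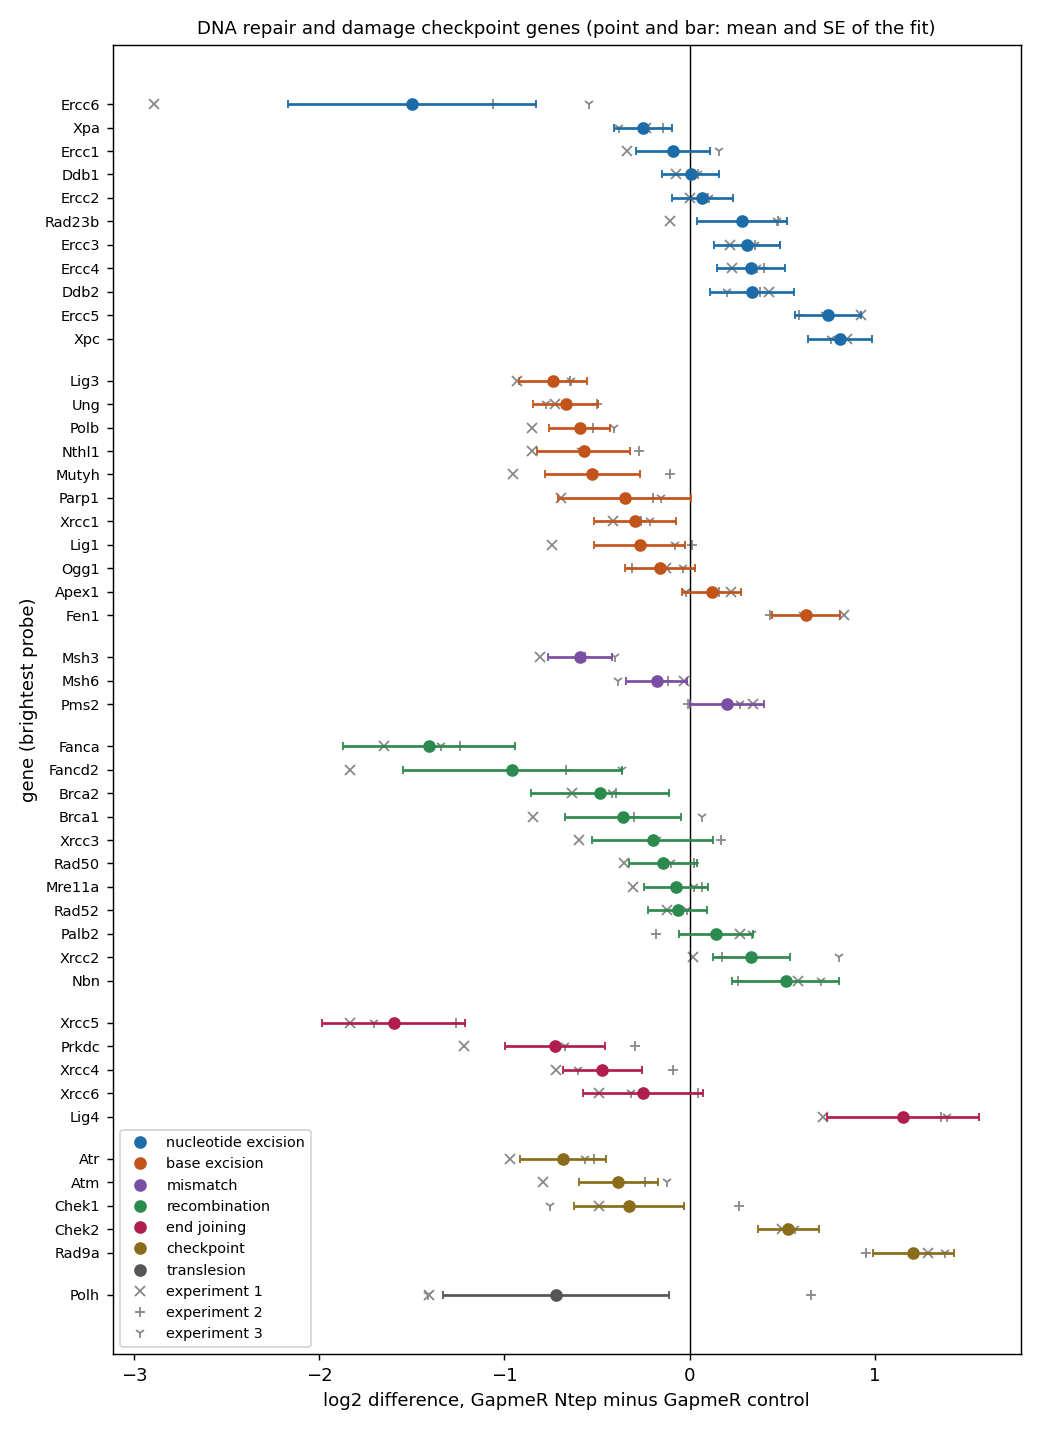
Log2 difference between GapmeR Ntep and GapmeR control (x axis) of the brightest probe of each of the 47 genes (y axis), grouped by repair role and ordered within it. Points and bars are the mean and SE of the limma fit and grey symbols the 3 experiments. Most base excision genes lie left of 0, 8 of 11 nucleotide excision genes lie right of it, and Xrcc5 (-1.60) and Rad9a (1.21) are the lowest and highest genes.

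Nucleotide excision genes were the role with the most members above 0, 8 of 11, with a median of 0.28. By experiment this median was 0.002, 0.356 and 0.201. Xpc (probe at chr6:91439856-91439915 of mm9, minus strand), which encodes the damage sensor that starts global genome repair, had signals of 5686, 6848 and 5994 with GapmeR Ntep and of 3155, 3860 and 3538 with GapmeR control. All its GapmeR Ntep signals exceeded all its control signals, by 0.81 on the log2 scale (SE 0.173), or 1.76-fold. The adjusted p was 0.0532 without and 0.0397 with the experiment as a block. Ercc5 (chr1:44237384-44237443 of mm9, plus strand), which encodes the nuclease XPG that cuts on the 3′ side of a lesion, read 2551, 1905 and 2219 against 1343, 1265 and 1339. Its signals did not overlap either, and the difference was 0.75 (SE 0.177, adjusted p = 0.0661, with the block 0.0492).

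The remaining nucleotide excision genes differed less or less evenly. Ercc6, which encodes the coupling factor CSB that acts at stalled RNA polymerase, read 21.77, 113.1 and 108 with GapmeR Ntep and 161.4, 235.7 and 157.2 with GapmeR control. Every GapmeR Ntep signal lay below every control signal, but the probe was dim, with 2 GapmeR Ntep arrays and 3 control arrays well above background. Its difference of -1.50 (SE 0.668, adjusted p = 0.231) did not pass and was -0.74 without the GapmeR Ntep array of experiment 1 and -0.60 with the normexp background. Rad23b, a partner of Xpc, had probes that moved apart. Its brightest probe read 31030, 27380 and 29860 against 33350, 19680 and 21520 and overlapped between labels, at 0.28 (SE 0.243). A dimmer Rad23b probe read 916.3, 763.6 and 961.7 against 1747, 1206 and 1451, lower on all arrays, by -0.73 (SE 0.208, adjusted p = 0.0978). Which transcripts each probe reads was not tested. The other 7 genes of this role ranged from -0.25 to 0.34, with adjusted p from 0.318 to 0.983. They included Ercc3 and Ercc2, the helicases of TFIIH, at 0.31 and 0.07. Ercc4, whose nuclease works with Ercc1, was at 0.33, and Ddb2, a sensor of ultraviolet damage, was at 0.34.

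Base excision genes ran the other way, with 9 of 11 below 0 and a median of -0.35. By experiment this median was -0.728, -0.262 and -0.211. Lig3 (chr11:82617710-82617769 of mm9, plus strand), the ligase that seals nicks together with Xrcc1, read 6565, 8757 and 8453 with GapmeR Ntep and 12500, 13710 and 13150 with GapmeR control. The labels did not overlap, and the difference was -0.74 (SE 0.182, adjusted p = 0.072, with the block 0.04997). A dimmer Lig3 probe differed by -0.49 (SE 0.275). Ung, the glycosylase that removes uracil from DNA, read 15720, 20320 and 17070 against 26040, 28780 and 29180, again without overlap, by -0.67 (SE 0.175, adjusted p = 0.081).

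Fen1, the flap nuclease of long-patch repair and of lagging strand synthesis, was the exception in this role. It read 75660, 54550 and 62920 with GapmeR Ntep and 42410, 40360 and 41190 with GapmeR control. Its signals did not overlap, and it differed by 0.63 (SE 0.183, adjusted p = 0.102). The other 8 members lay between -0.59 and 0.12, with adjusted p from 0.0919 to 0.664. The lowest of these was Polb, the gap-filling polymerase, at -0.59, followed by the glycosylase genes Nthl1 at -0.57 and Mutyh at -0.53. Apex1, which encodes the endonuclease that cuts at abasic sites, was at 0.12. Of the base excision members, 5 (45.5%) were lower and 1 (9.09%) was higher without overlap, where 15.5% and 17.1% of all names were.

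**Figure D2:**
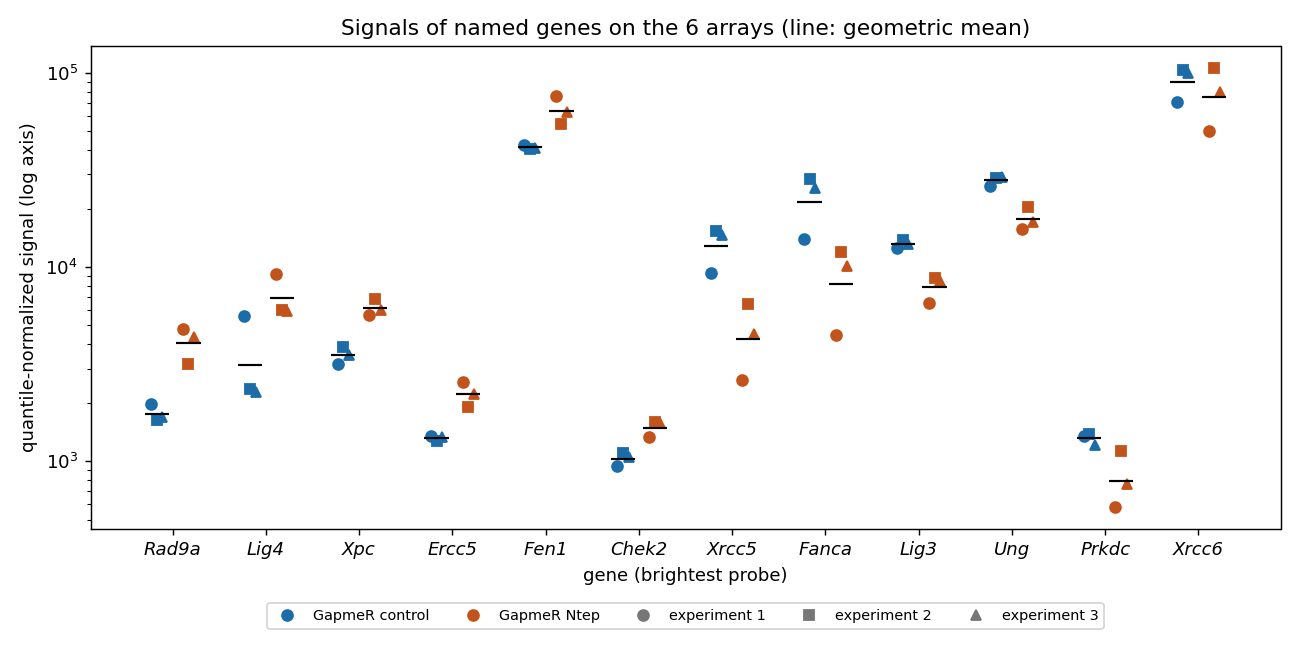
Quantile-normalized signal (y axis, log scale) of the brightest probe of 12 members on the 6 arrays, with GapmeR control in blue, GapmeR Ntep in orange, symbols for the experiments and lines for geometric means. Rad9a, Lig4, Xpc, Ercc5, Fen1 and Chek2 have every GapmeR Ntep signal above every control signal, Xrcc5, Fanca, Lig3, Ung and Prkdc the reverse, and Xrcc6 overlaps.

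Of the 3 mismatch genes, 2 were below 0 and none passed the adjusted test. Msh3, whose product recognizes small insertion and deletion loops, read 12990, 12940 and 13160 with GapmeR Ntep and 22710, 19130 and 17370 with GapmeR control. These did not overlap, and the difference was -0.59 (SE 0.172, adjusted p = 0.101), and its other 2 probes were also lower. Msh6, which encodes the subunit for single mispairs, read 50930, 54430 and 44860 against 52050, 59030 and 58540. Its labels overlapped, and its difference of -0.18 (SE 0.166, adjusted p = 0.534) turned to 0.03 with 75th percentile scaling. Pms2, the endonuclease that acts after recognition, had probes of opposite sign, at 0.20 and -0.19, with overlapping labels for both.

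Recombination genes had a median of -0.14, with 8 of 11 below 0. By experiment this median was -0.354, -0.059 and -0.015, so it was close to 0 in experiments 2 and 3. Fanca (chr8:125792210-125792269 of mm9, minus strand), a subunit of the Fanconi anemia core complex that acts on crosslinks, had the largest difference. It read 4453, 11980 and 10100 with GapmeR Ntep and 13950, 28250 and 25580 with GapmeR control. The experiment 1 signals were the lowest under both labels, so the groups were wide but did not overlap. The difference of -1.41 (SE 0.464), a 2.66-fold lower signal, had an adjusted p of 0.132 without and 0.0312 with the block, and by experiment it was -1.65, -1.24 and -1.34. Without the GapmeR Ntep array of experiment 1 it was -0.96, under 2-fold. Fancd2, the protein that this complex modifies, read 241.8, 814.4 and 1111 against 862.7, 1292 and 1432. It was lower within each experiment, but the labels overlapped and the difference of -0.96 (SE 0.592, adjusted p = 0.367) did not pass and was -0.29 without the GapmeR Ntep array of experiment 1.

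Nbn, whose product joins Mre11a and Rad50 in the complex that binds broken ends, read 1382, 814.3 and 919.3 against 919.1, 679.2 and 562.9, at 0.52 (SE 0.29, adjusted p = 0.321), or 0.30 without that array. Its partners Mre11a and Rad50 were at -0.07 and -0.14. The other 8 recombination genes ranged from -0.48 to 0.33, with adjusted p from 0.369 to 0.824. Brca2, which loads the recombinase onto DNA, was at -0.48 and Brca1 at -0.36, neither past the test. The second probes of Rad50 and Xrcc2 had the opposite sign to their brightest probes. Of the 11 members with several probes, 7 had probes of the same sign and Pms2, Rad23b, Rad50 and Xrcc2 did not.

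End joining genes held both the lowest member and the second highest. Xrcc5 encodes the larger and Xrcc6 the smaller subunit of Ku, the ring that binds broken ends. Xrcc5 (chr1:72430014-72430320 of mm9, plus strand) read 2629, 6418 and 4498 with GapmeR Ntep and 9354, 15370 and 14650 with GapmeR control. The labels did not overlap, and its difference of -1.60 (SE 0.384), a 3.03-fold lower signal, had an unadjusted p of 0.00577 and an adjusted p of 0.0682, or 0.0314 with the block. Xrcc6 read 50510, 106200 and 79950 against 70830, 103000 and 99530. Its labels overlapped, its difference was -0.25 (SE 0.324, adjusted p = 0.652), and without the GapmeR Ntep array of experiment 1 the difference was 0.04. Within arrays, Xrcc5 fell further than Xrcc6 by -1.34, -1.30 and -1.39 in the 3 experiments, a pair set side by side after its values had been seen and so given without a test.

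Lig4 and Xrcc4 encode the ligase of end joining and the scaffold that holds it. Lig4 (chr8:9970290-9970349 of mm9, minus strand) read 9225, 6034 and 5957 with GapmeR Ntep and 5603, 2357 and 2277 with GapmeR control. All GapmeR Ntep signals were higher, although the experiment 1 control approached them, and the difference of 1.15 (SE 0.41, adjusted p = 0.153) passed with the block (0.0428). Xrcc4 read 2837, 4273 and 2910 against 4680, 4538 and 4413, lower on every array, by -0.47 (SE 0.213, adjusted p = 0.236). The difference of Lig4 exceeded that of Xrcc4 by 1.44, 1.44 and 1.99 in the 3 experiments, also chosen after its values had been seen and not tested. Prkdc, the catalytic subunit of the DNA-dependent protein kinase that Ku recruits, read 582.2, 1123 and 759.7 against 1352, 1376 and 1209. It was lower on every array, by -0.73 (SE 0.27, adjusted p = 0.167).

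**Figure D3:**
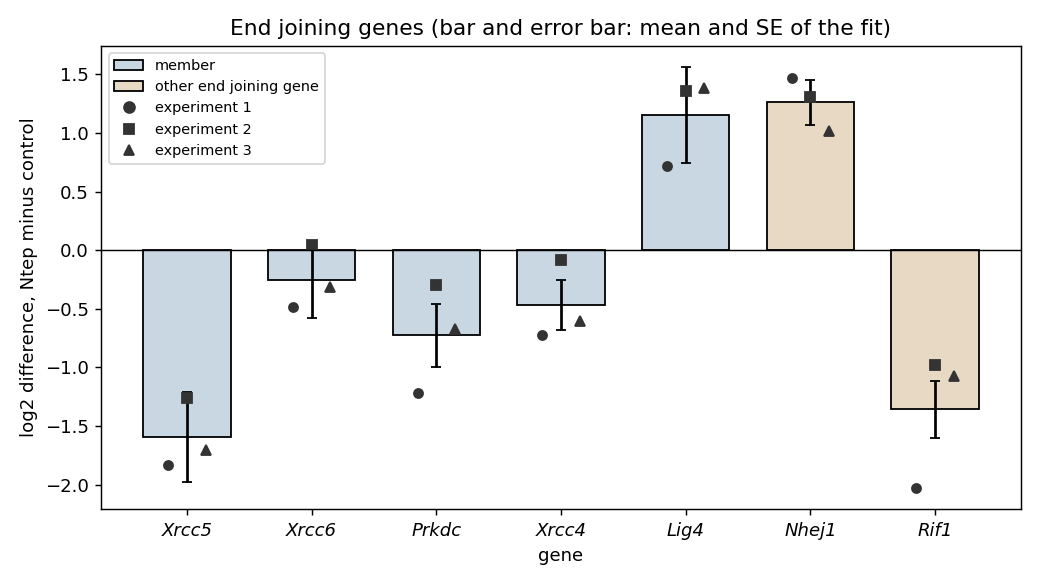
Log2 difference (y axis) of the 5 end joining members and of Nhej1 and Rif1 from the list of other repair genes (x axis). Bars and error bars are the mean and SE of the fit and symbols the 3 experiments. Xrcc5 (-1.60) is below 0 in every experiment while its partner Xrcc6 (-0.25) straddles 0, and Lig4 (1.15) and Nhej1 (1.26) are above 0 in every experiment.

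Checkpoint genes held the only member past the adjusted test. Rad9a (chr19:4195384-4195443 of mm9, minus strand), a subunit of the ring clamp that is loaded at damaged DNA and helps to activate Atr, read 4810, 3166 and 4385 with GapmeR Ntep and 1969, 1634 and 1684 with GapmeR control. Every GapmeR Ntep signal exceeded every control signal, and the difference of 1.21 (SE 0.218), a 2.31-fold higher signal, had an adjusted p of 0.0389, or 0.0337 with the block. Leaving out 1 array at a time, it stayed between 1.08 and 1.39, with an adjusted p of 0.0408 without the GapmeR Ntep array of experiment 2 and of 0.07 to 0.163 without any of the other 5. Chek2, a kinase activated by Atm, read 1335, 1584 and 1563 against 943.5, 1098 and 1052, also without overlap, at 0.53 (SE 0.167, adjusted p = 0.119).

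The kinases that start the checkpoint had lower or dim signals, and none passed the adjusted test. Atr, which senses single-stranded DNA, read 6600, 10690 and 9680 with GapmeR Ntep and 12920, 15280 and 14320 with GapmeR control. It was lower on every array, by -0.68 (SE 0.232, adjusted p = 0.141), while its dimmer probe was at -0.24. Atm, which senses double-strand breaks, read 1482, 2160 and 2238 against 2567, 2549 and 2431, lower on every array, by -0.38 (SE 0.213, adjusted p = 0.318). Without the GapmeR Ntep array of experiment 1 it was -0.19, and the dimmer Atm probe was at -0.10, below 0 in experiment 1 and above 0 in experiments 2 and 3. Chek1, the kinase downstream of Atr, was well above background on 1 GapmeR Ntep array and on 0 control arrays. Its signals of 36.92, 69.79 and 35.87 against 51.85, 57.95 and 60.41 therefore give no fold. Polh, the polymerase that bypasses ultraviolet lesions, was also dim, well above background on 1 GapmeR Ntep and 2 control arrays. It read 31.75, 69.28 and 72.96 against 84.15, 44.04 and 193.8, with a difference of -0.72 (SE 0.61, adjusted p = 0.492) and overlapping labels, and without the GapmeR Ntep array of experiment 1 the difference was -0.35.

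A further 85 repair genes were listed by pathway from general knowledge, of which 84 were tested. Their median was -0.09, with 30 higher and 54 lower. Past an adjusted p of 0.05 were 1 higher gene and 4 lower genes, where 1.98% and 3.18% of all names were. Both directions together made 5.95% of those tested, against 5.16% of all names. Nhej1, whose product XLF aligns ends beside Xrcc4, read 2032, 2314 and 1757 against 734.5, 936.7 and 867.5 and rose by 1.26 (SE 0.192, adjusted p = 0.0302). With the block 8 of the 84 passed, 2 higher and 6 lower, where 6.51% and 7.42% of all names passed. Mgmt, which repairs methylated guanine directly, read 1878, 3174 and 2840 against 7155, 9474 and 11610. It fell by 1.85 on the log2 scale (SE 0.288, adjusted p = 0.0318).

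Rif1, which shields broken ends from resection, read 5156, 7737 and 7751 against 21080, 15220 and 16270 and differed by -1.36 (adjusted p = 0.0384, with the block 0.05004). Its labels did not overlap. Leaving out 1 array at a time, Nhej1 and Rif1 lost the call whichever array was left out (adjusted p from 0.0503 and 0.0557 upward), and Mgmt passed without the GapmeR Ntep array of experiment 2 but not without any other. A fold of at least 2 with an unadjusted p under 0.01 added Aptx at -2.85, Bard1 at -2.22, Mus81 at -1.45 and Topbp1 at -1.11, with adjusted p of 0.061, 0.0796, 0.0565 and 0.071. Aptx resolves failed ligations, Bard1 is the partner of Brca1, Mus81 is a nuclease that cuts branched DNA, and Topbp1 activates Atr at the Rad9a clamp. The Aptx signal of experiment 1 with GapmeR Ntep lay at the floor of 20, and Aptx was well above background on the other 2 GapmeR Ntep arrays. Outside the rule for named genes, Rad1 at 0.91, Rev3l at -0.92 and Fanci at -0.83 passed with the block, as did Aptx, and were picked out after their values had been seen. By pathway, 19 of 23 other recombination genes were below 0, with a median of -0.35. For base excision these were 7 of 10 with a median of -0.26, and for nucleotide excision 7 of 14 with a median of 0.03.

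**Figure D4:**
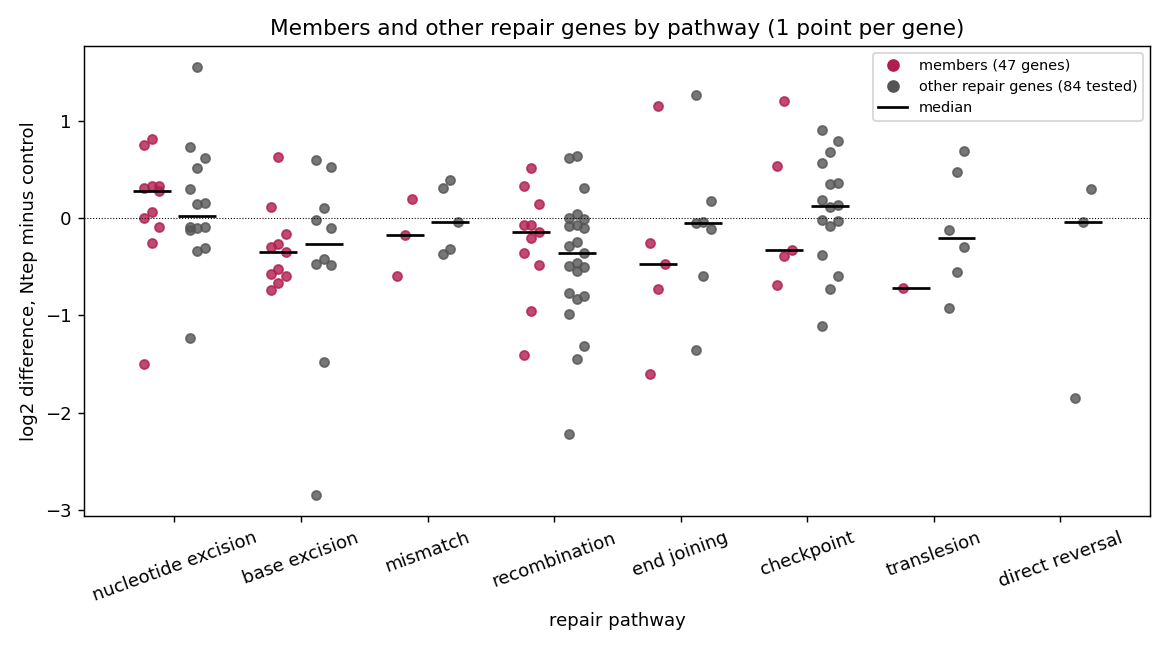
Log2 difference (y axis) of the 47 members in red and of 84 other repair genes in grey, by pathway (x axis), with 1 point per gene and lines for medians. Both sets of base excision genes have medians below 0 (-0.35 and -0.26), and the nucleotide excision medians are 0.28 and 0.03.

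Long members tended to lie lower. Length was looked at because earlier results of these same data had shown long genes lower, so this is not an independent observation. Over the 47 members, the gene length in the RefSeq table and the log2 difference had a Spearman rho of -0.391, where rho over the 13551 names with a length was -0.139. These are descriptions across genes, which share arrays and are not replicates. The 15 longest members, of 47.85 kb or more, had a median of -0.48 and 14 of them were below 0. The 15 shortest, of 21.11 kb or less, had a median of -0.09 with 9 below 0. Xrcc4 (240.7 kb) and Prkdc (204.8 kb) were among the longest, and Rad9a (6.477 kb) and Lig4 (7.661 kb) among the short ones. Length and role could not be separated in so few genes.

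**Figure D5:**
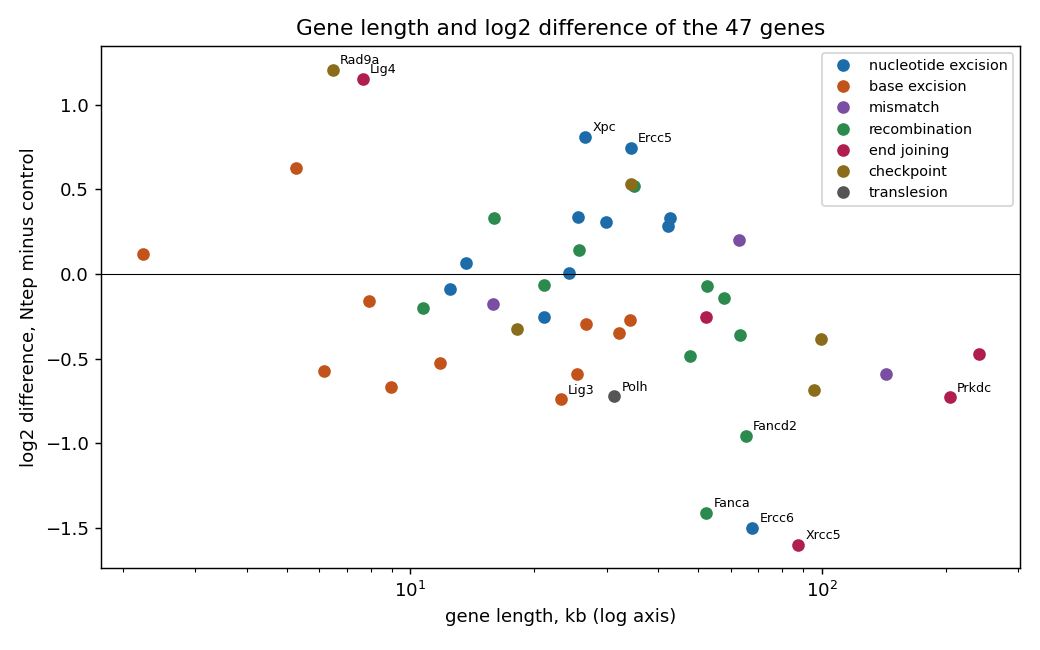
Gene length in kb (x axis, log scale) and log2 difference (y axis) of the 47 genes, colored by role, with the genes beyond 0.7 in either direction named. The 2 genes above 1, Rad9a and Lig4, are shorter than 10 kb, and the 3 genes below -1.4 (Xrcc5, Ercc6 and Fanca) are longer than 50 kb. Ercc6 was dim, and without the GapmeR Ntep array of experiment 1 it was at -0.74 and Fanca at -0.96.

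Promoters of 37 members were in the RefSeq table, 42 windows in all, each from 250 bases before to 50 bases after a start. The letters were searched on both strands, and no motif lies inside another. CCAAT was in 52.4% of the members' windows and in 37.4% of all 32851 windows, TTTCCCGC in 9.52% and 1.07%, TTTGGCGC in 2.38% and 0.514%, and TTTGAA in 4.76% and 17.9%. The 21 members with CCAAT had a median difference of -0.18, with 8 higher and 13 lower, and the 16 without it had -0.41, with 3 higher and 13 lower. The E2F-type letters were in Brca2, Chek2, Msh3, Msh6 and Xrcc6, and TTTGAA was in Ercc5 and Fen1. A match of letters is not a site in use.

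Values of other gene groups on the same arrays are given here, and their part in the results above was not tested. By their brightest probes, none of the P53, S phase and G2/M genes passed the adjusted test without the block. Of 17 tested P53 targets 11 were higher, with a median of 0.51, and Cdkn1a, which encodes the inhibitor p21, was at 1.18 (SE 0.3, adjusted p = 0.0768, with the block 0.0391). Of 17 tested S phase genes 14 were higher (median 0.24), and of 9 tested G2/M genes 5 were higher (median 0.09). Dimmer probes of some genes read otherwise. Ccnb1 was at -0.20 by its brightest probe and at 0.92 and 1.15 by others (adjusted p = 0.0525 and 0.0517). Cdk1 was at -0.07 by its brightest probe and at -0.77 and -0.46 by others (0.15 and 0.516). A dimmer Cdc6 probe at 1.06 (0.0307) and a dimmer Cdkn1a probe at 2.25 (0.0466) passed. That Cdkn1a probe was not well above background on any control array. Of 10 fibroblast markers 9 were tested and well above background on all arrays, of which 8 were lower (median -0.71). Fbn1 passed the adjusted test, at -0.875 (SE 0.168, adjusted p = 0.0439), and no other marker of this list did. The summed signal of all 10 was 457300 to 600900 with GapmeR Ntep and 676900 to 749100 with GapmeR control. Of 7 macrophage markers, the defining Ptprc, Adgre1 and Fcgr1 were not well above background on any array. The markers' summed signal was nonetheless 33040 to 62730 against 15520 to 21220. It was carried by Itgam at 1.25 (adjusted p = 0.0881), Cd68 at 1.21 (0.0287) and Csf1r at 3.19 (SE 1.121, 0.151). The labels overlapped for Csf1r. Other tested probes of Itgam, Cd68 and Csf1r were at -0.025, 0.681 and 0.443. Lyz2, also tested, was at -0.184. Cdh5 and Tek of the 4 endothelial markers were not well above background on any array. Kdr and Pecam1 were by their brightest probes, at 0.41 and 0.38 (adjusted p = 0.184 and 0.264), with every GapmeR Ntep signal above every control signal. The other Kdr probe was not well above background on any array. The 4 endothelial markers summed to 728.3 to 805.6 against 558.7 to 634.5. The 4 epithelial markers summed to 2727 to 5354 against 1767 to 3750. In RNA of whole cultures, fewer cells of a type and less RNA per cell cannot be told apart. Per array, 43.7% to 53.3% of probes were well above background and 0 spots were saturated.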

How the data were processed

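Total RNA of 6 cultures was hybridised to 1-color Agilent arrays. The authors deposited, per array, background-subtracted intensities on a linear scale, made with Feature Extraction 10.7.3.1. They also deposited a table of quantile-normalized intensities, linear and uncentred with a median of 54.3 in each column, used as an alternative. Here, spots of a probe were averaged, quantile normalization followed, 20 was the lowest value kept, and 30990 probes whose brighter label averaged 50 or more were compared on the log2 scale in limma 3.58.1 (R 4.3.3). Tests were unpaired and two-sided, with Benjamini-Hochberg adjustment over the probes tested. A gene counts by its brightest probe.

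The members and lists were chosen with earlier results of these data known. Named are members past either limit, the 3 largest differences per role and all members of roles of up to 5, members whose probes differ in sign with 1 past p 0.05, and other repair genes past either limit. Each experiment's arrays were paired by culture day in the study's supplementary list. Residuals correlated within these pairs (0.466, 0.3, 0.254) and from -0.327 to 0.126 across pairs, so a fit with the experiment as a block was run. Gene names, lengths and promoters are from RefSeq (GRCm38.p6), probe positions from mm9. With 3 arrays per label, their number limits the precision. The fit was also run on simulated data with known changes, and the outcome is not reported here. A gene that missed a limit is not thereby shown to be unchanged. Some of the other repair genes are counted but not reported here by name.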

Additional observations from a re-analysis of the deposited data

How the results depend on the processing

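The alternatives comprised 17 other fits and a count by any probe of a gene. The median difference of the members stayed between -0.31 and -0.07 under them, the methods' t-test aside, which leaves the differences as they are. Scaling to the 75th percentile moved the median of all probes tested from 0.06 to 0.22 and left 19 members higher and 28 lower, where it was 17 and 30. The number of members past an adjusted p of 0.05, 1 as reported, was 0 with 75th percentile scaling, with no filter on dim probes and with the methods' t-test. It was 5 with the normexp background, 6 with only probes well above background on all arrays, 6 with trend and robust, 7 with the replicate block and 17 with array weights, and without single arrays it was between 0 and 1. The number past a fold of 2 and p 0.01, 2 as reported, was 1 with no filter and with the methods' t-test, 4 with the replicate block and with array weights, and 1 to 3 without single arrays. For the other repair genes past an adjusted p of 0.05, 5 as reported, the counts were 0 with no filter and with the methods' t-test, 11 with the normexp background, 9 with only probes well above background, 8 with the replicate block, 11 with trend and robust, 32 with array weights and 0 to 3 without single arrays. The fits without single arrays hold fewer arrays, and the fit with no filter adjusts over more probes. What caused the shifts in these counts was not tested. Of the 24 named members, 22 kept their direction throughout. The exceptions were Msh6, at 0.026 with 75th percentile scaling, and Xrcc6, at 0.035 without GapmeR Ntep replicate 1 and at -0.506 without replicate 2. Rad9a lost its call with 75th percentile scaling (adjusted p = 0.0506), without the filter (0.081) and with the methods' t-test (0.0815), besides the 5 arrays named above. The Ntep probe ranged from -1.08 to 0.13 without single arrays, above 0 without GapmeR Ntep replicate 2 alone. Members whose signals were near background, Chek1, Polh and Ercc6, give no firm difference.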
